A study of Drosophila yakuba and Drosophila melanogaster with 20 samples.

Results

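The heavily edited tracts of Drosophila yakuba are 30 stretches of the genome in which listed RNA editing sites lie close together. They carried 426 of the 1250 sites on the authors' list for this species, or 34.1% (exact 95% binomial interval 31.5 to 36.8). The interval treats sites as independent, although they enter by whole tracts, so it is likely too narrow. The tracts were chosen by the positions of the sites themselves: neighbours no more than 10000 bp apart were joined, which gave 493 tracts and single sites, and every tract with 8 or more sites was kept. Number of sites and closeness are therefore how the tracts were made and not findings about them. Each value below describes the deposited list and carries no test. Over both species the series lists 2488 sites.

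Adenosine deaminases acting on RNA (ADAR) convert adenosine to inosine in double-stranded RNA, and inosine is read as guanosine by the ribosome and by reverse transcriptase. The duplex often forms between an exon and a complementary stretch of a nearby intron, so several adenosines of one transcript can be edited together. In the fly, edited messages are known above all from the nervous system, where many encode ion channels and proteins of the synapse. Some adenosines are edited selectively, while long perfect duplexes can be edited at many positions.

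For D. yakuba there were 12 libraries of adult heads from 6 strains (CY08, CY21B3, NY48, NY56, NY66-2 and NY81). In 6 of them RNA was treated with 1.6 M acrylonitrile (ICE), which modifies inosine and blocks reverse transcription there, and 6 mock libraries of the same strains went without it. About 50 heads gave the RNA of each sample. All samples of both species, mock included, were incubated at 70 °C for 1 h. The comparison species, Drosophila melanogaster, had 8 libraries of adult heads of the strain y; cn, bw, sp, namely 2 ICE and 6 mock libraries, of which 2 were labelled HiSeq and 2 NextSeq. Its own list held 1238 sites, and these last 4 libraries also had tables of base differences. Which libraries stand behind each list is not given in the lists. The lists hold positions only, so depth, editing level, strand and the number of strains behind a D. yakuba site are unknown, and no annotation of the droYak2 build was used here, so that tracts are named by arm and position and not by gene. No base sequence is shown for these positions, which are all given on droYak2, and those of D. melanogaster on dm3.

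The tracts ranged from 1078 to 36447 bp, with a median of 12577 bp, and covered 407325 bp in all. Pooled over this length there were 1.05 sites per kb. A tract held a median of 12 sites. Length and site number went together only in part: Spearman's rho was 0.40 across the 30 tracts, against 0.71 between length and the number of clusters, where a cluster joins sites at gaps of at most 100 bp. Longer tracts thus held more separate clusters, and their sites had a close neighbour less often (rho of -0.53 between length and the share of sites with a neighbour within 100 bp). These coefficients describe the tracts, which were cut from the list by their spacing.

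**Figure D1:**
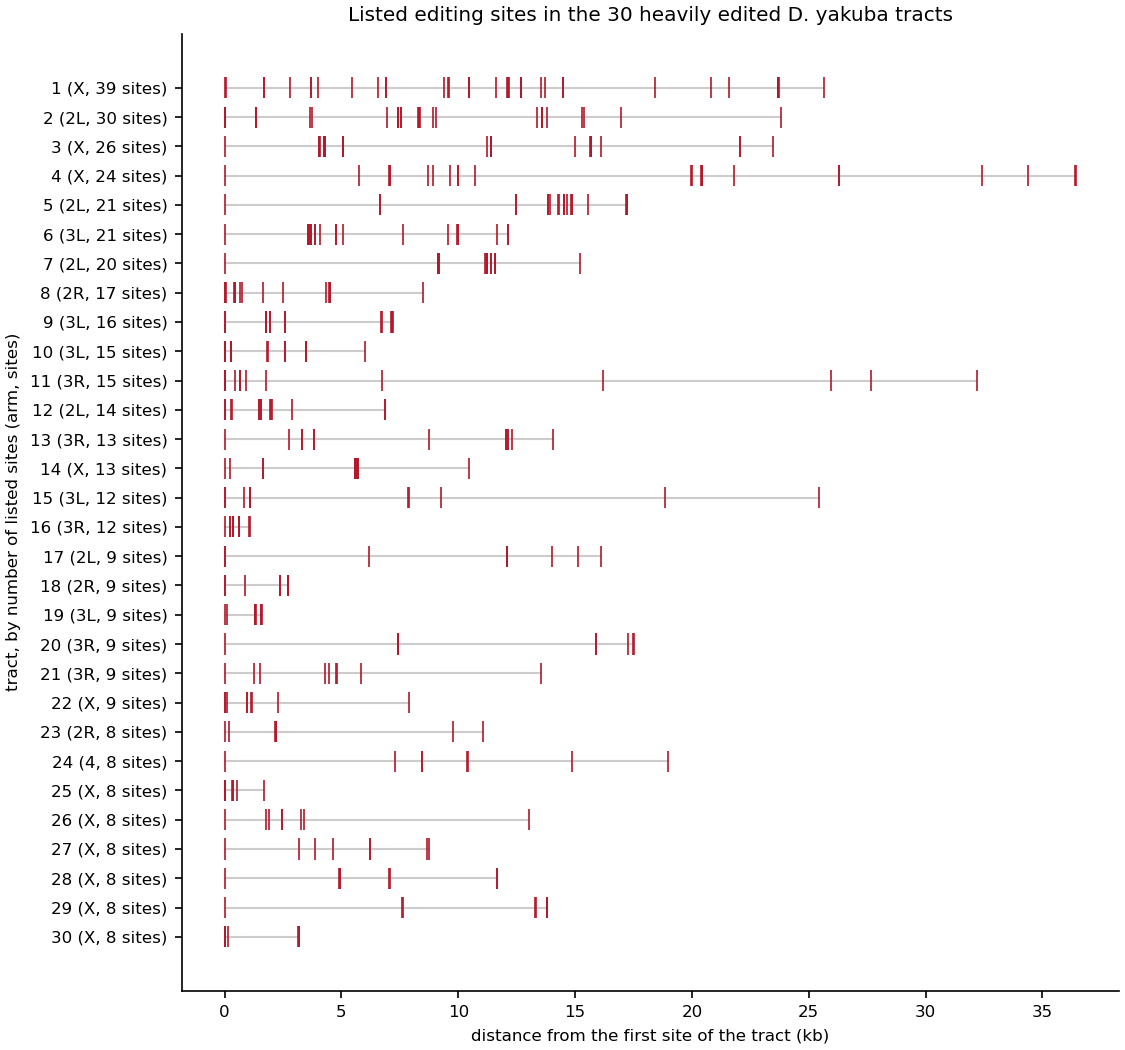
Each row is 1 of the 30 D. yakuba tracts, numbered by its number of listed sites. Vertical marks are listed sites, placed by their distance in kb from the first site of the tract. Tract 4 is the longest (36447 bp) and tract 16 the shortest (1078 bp), and most rows show a few dense groups of marks separated by long empty stretches.

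Member sites were concentrated within their tracts. In 12 of the 30 tracts at least 50% of the sites fell within a window shorter than 10% of the tract length, and the median over the tracts was a window of 1034 bp. The largest empty gap in a tract took up a median of 43.8% of its length, with a range of 15.4% to 94.9%. Only 1 tract, at 3R from 8724397 to 8725474, had no gap over 1000 bp. Of the 396 gaps between neighbouring sites in the tracts, 55 (13.9%) were 1 bp, 64 (16.2%) were 2 to 10 bp, 89 (22.5%) were 11 to 100 bp, 86 (21.7%) were longer but at most 1000 bp, and 102 (25.8%) exceeded that. None of these classes held more than 25.8% of the gaps.

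Joined at 100 bp, the 426 sites formed 218 clusters. Of these, 106 held a single site, 57 held 2 sites, 28 held 3, and 27 held 4 or more. Clusters of 4 or more sites were present in 20 of the 30 tracts and carried 122 sites, 28.6% of the members (24.4 to 33.2). In the remainder of the D. yakuba list 61 of 824 sites, 7.40%, lay in such clusters, and in the tracts of 2 to 7 sites 61 of 540, or 11.3%. A tract of fewer sites has less room for a cluster of 4, so these shares follow in part from the rule that made the classes. The share of members with a listed neighbour within 100 bp was 75.1% (320 of 426), against 55.6% in tracts of 2 to 7 sites and 36.4% in the remainder of the list, which includes the single sites that have none by the rule. Sites of smaller tracts more often lie at a tract end, with a gap on 1 side only, so this share also follows in part from the rule. Counted per gap, the classes were closer: gaps of 11 to 100 bp were 22.5% in the heavily edited tracts and 23.0% in tracts of 2 to 7 sites.

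Directly adjacent edited bases occurred in 22 of the tracts. They formed 37 pairs, 6 runs of 3 bases and 2 runs of 4 bases, so that 100 member sites (23.5%) had a listed site on an adjacent base, against 13.3% (72 of 540) in the tracts of 2 to 7 sites. Single sites cannot have one by the way tracts were joined. A tract of fewer sites also has fewer gaps per site, so the share per site follows in part from the rule. The runs of 4 bases lay at 2L from 9915387 to 9915390 and at X from 10484693 to 10484696. The runs of 3 bases began at 2L 12494998, 3L 5006815, 3R 2290911, X 10482494, X 12395981 and X 14850503. The other 8 tracts had no 1-bp gap at all, and among them was the tract at 2L from 2775650 to 2782496, with 14 sites.

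**Figure D2:**
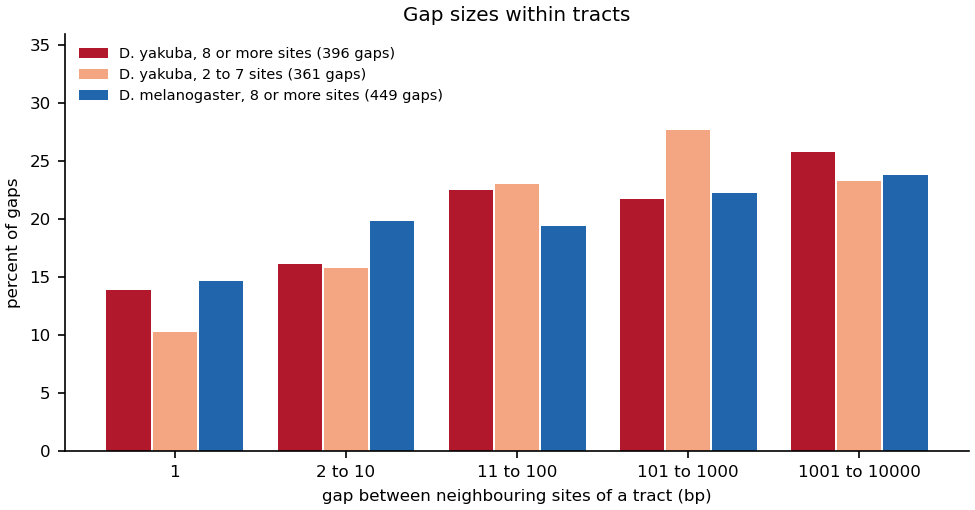
Bars give the percent of gaps between neighbouring sites of the same tract that fall into each size class, in bp. The D. yakuba tracts of 8 or more sites (396 gaps) stand beside D. yakuba tracts of 2 to 7 sites (361 gaps) and D. melanogaster tracts of 8 or more sites (449 gaps). Gaps of 1 bp made up 13.9%, 10.2% and 14.7% in these groups.

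Shares of the gap size classes were set beside those of the smaller tracts, with no test. The 1-bp gaps were 13.9% of gaps in the heavily edited tracts and 10.2% in the tracts of 2 to 7 sites, and the gaps of 2 to 10 bp were 16.2% in the heavily edited tracts and 15.8% in the tracts of 2 to 7 sites. The widest difference was among gaps over 100 and up to 1000 bp, at 21.7% in the heavily edited tracts and 27.7% in the tracts of 2 to 7 sites. The median gap was 70 bp in the heavily edited tracts and 110 bp in the tracts of 2 to 7 sites. In D. melanogaster 1-bp gaps made up 14.7% in the heavily edited tracts and 15.1% in tracts of 2 to 7 sites. The median gaps there were 48 and 38.5 bp, so in that list both differences ran the other way. Whether the species differ in this was not tested. Between 2 and 100 bp, 59 of 153 gaps (38.6%, exact interval 30.8 to 46.8) were a multiple of 3, the length of a codon, against 52 of 140 (37.1%, 29.1 to 45.7) in the tracts of 2 to 7 sites and 51 of 176 (29.0%, 22.4 to 36.3) in the heavily edited D. melanogaster tracts. Over all listed D. yakuba sites the share was 37.9% (111 of 293). Among whole lengths about 1 in 3 is such a multiple, and the intervals of all 3 groups include that share. The intervals overlap one another, and the neighbouring gaps of a tract are not independent. Whether the sites lie in coding sequence is not known here.

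The X chromosome carried 11 of the 30 tracts (36.7%, 19.9 to 56.1) and 159 of the 426 member sites (37.3%). Of all 1250 listed sites 334 (26.7%) were on X. Among the tracts of 2 to 7 sites it held 39 of 179 (21.8%, 16.0 to 28.6), and the 2 intervals overlap. In D. melanogaster 14 of 35 heavily edited tracts (40.0%) were on X, against 22.1% of its other tracts and single sites. A higher share on X was thus not particular to D. yakuba. Among the other 463 tracts and single sites 85 (18.4%, 14.9 to 22.2) were on X, which is a description of the list, since no test over tracts was made. Heavily edited tracts held 47.6% of all sites listed on X. They held 41.5% of the sites of 3L and 39.5% of those of 2L, but 23.1% of those of 3R, 22.9% of those of chromosome 4 and 15.7% of those of 2R. The X tracts were not larger as a rule: 6 of the 11 held exactly 8 sites, against 2 of the 19 tracts on other arms, and the median was 8 sites on X and 13 on the other arms. X nevertheless held 3 of the 4 tracts with the most sites.

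The tract with the most sites lay at X from 10472025 to 10497694, with 39 sites in 22 clusters, 12 of them single sites. No cluster exceeded 4 sites, and its largest gap was 3951 bp, 15.4% of the length and the smallest such share among the tracts. It had 8 gaps of 1 bp. Its sites at 10484101 to 10484191 followed one another at 36, 25 and 29 bp, and a run of 4 adjacent bases began 502 bp further on. Its clusters were small and many.

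Other tracts with 20 or more sites differed in how many clusters they held. The tract at 2L from 12487576 to 12511405 held 30 sites in 15 clusters, with 5 gaps of 1 bp. At X from 16439292 to 16462756, 26 sites formed 11 clusters, the largest of 5 sites within 56 bp. At X from 14830066 to 14866512, the longest tract, 24 sites formed 15 clusters, 9 of them single sites. In the tract at 2L from 14171090 to 14188327, 11 of the 21 sites fell within 5.81% of its 17238 bp. At 3L from 8990838 to 9002973, 21 sites in 11 clusters included 6 sites within 116 bp, which began and ended with an adjacent pair. The tract at 2L from 9904171 to 9919388 held 20 sites in only 6 clusters. A cluster of 7 sites within 97 bp ended there in 4 adjacent bases, and another cluster of 6 sites spanned 36 bp. A single site opened this tract 9124 bp before the next one, 60.0% of the length.

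There were 9 tracts with 12 to 17 sites. At 2R from 20761327 to 20769812 there were 17 sites in 8486 bp, 6 of them within 173 bp. At 3L from 5158513 to 5165717, all 16 sites had a neighbour within 100 bp, and no cluster held a single site. The tract at 3L from 5006548 to 5012574 held 15 sites with 5 gaps of 1 bp and a median gap of 8 bp. The tract at 3R from 25963346 to 25995544 also held 15 sites but spread them over 32199 bp, with 8 of its 10 clusters being single sites. At X from 12390387 to 12400859, 8 of the 13 sites made the largest cluster of all, within 114 bp. The others were 14 sites at 2L from 2775650, 13 sites at 3R from 5633821 to 5647884, with no adjacent bases, and 12 sites at 3L from 2764608 to 2790037, of which 4 lay within 5 bp. At 3R from 8724397 to 8725474, 12 sites in 1078 bp gave the highest density of all tracts, 11.1 sites per kb.

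The remaining 14 tracts held 9 or 8 sites. With 9 sites there were 6, at 2L from 4333515 to 4349632, 2R from 9624853 to 9627583, 3L from 4941692 to 4943284, 3R from 2283474 to 2301007, 3R from 28359090 to 28372627, and X from 2011495 to 2019391. Those on 2R and 3L were compact, at 2731 and 1593 bp, and all 9 sites of the 3L tract had a neighbour within 100 bp. The tract at 3R from 28359090 was the opposite case, since 7 of its 8 clusters were single sites. With 8 sites there were 8, at 2R from 6708420 to 6719465, chromosome 4 from 958023 to 977005, and X from 1175117, 3478704, 9091104, 10514838, 12089713 and 21344941. In the 2R tract 4 sites lay within 57 bp, 0.516% of its 11046 bp. The chromosome 4 tract was the sparsest, with 0.421 sites per kb and a median gap of 1946 bp. At X from 21344941 to 21348125, an empty gap of 3021 bp took up 94.9% of the tract between its clusters.

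Tracts just inside and just outside the threshold had overlapping lengths. The 8 tracts with 8 sites spanned 1673 to 18983 bp in 3 to 6 clusters, and the 7 tracts with 7 sites spanned 1093 to 13893 bp, also in 3 to 6 clusters. Some tracts also stood near to one another. Only 17144 bp separated the X tract of 39 sites from the tract at X from 10514838 to 10526479, and on 3L 63264 bp separated the tracts that begin at 4941692 and 5006548. The next tract on 3L, from 5158513, followed after 145939 bp.

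**Figure D3:**
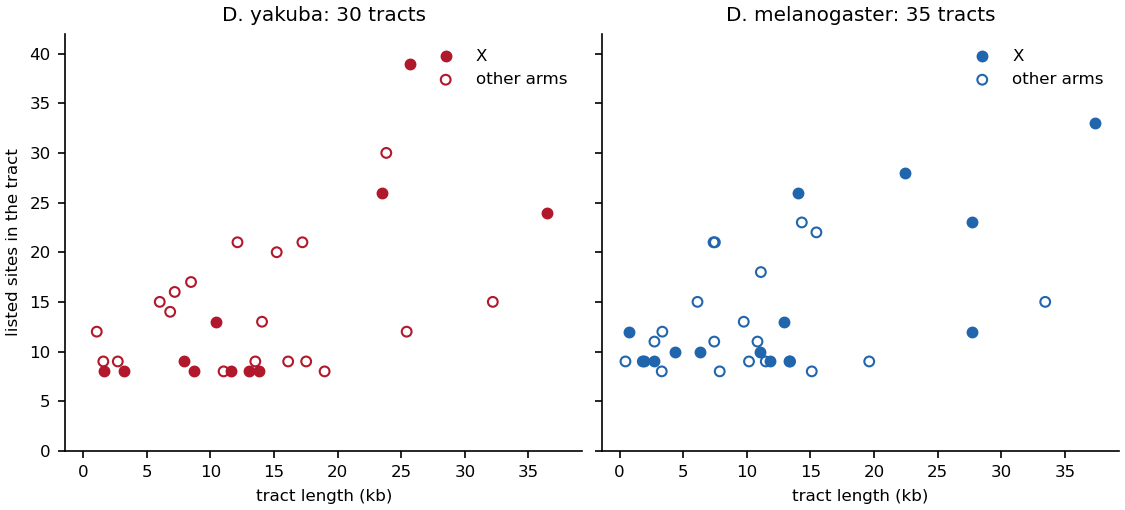
Each point is a tract with 8 or more listed sites, by its length in kb and its number of sites, for D. yakuba (30 tracts, left) and D. melanogaster (35 tracts, right). Filled points are tracts on X. In both species tracts of 8 to 12 sites occur at lengths from under 2 kb to over 15 kb, and the tract with the most sites is on X in both, with 39 sites in D. yakuba and 33 in D. melanogaster.

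By the same rule D. melanogaster had 35 tracts with 484 sites, 39.1% of its list, against 30 tracts with 426 sites, 34.1%, in D. yakuba. The summed length was nearly the same, 407325 bp in D. yakuba and 407035 bp in D. melanogaster. The share of member sites with a neighbour within 100 bp was 75.1% in D. yakuba and 74.0% in D. melanogaster, and within 10 bp it was 46.9% in D. yakuba and 52.7% in D. melanogaster. Clusters of 4 or more sites carried 28.6% of the members in D. yakuba and 36.6% in D. melanogaster. A window of 50 bp, the read length given for the HiSeq, held more than 4 sites in 2 of 30 D. yakuba tracts and in 7 of 35 D. melanogaster tracts. The TopHat step allowed 4 mismatches, and what part this limit plays in the densest clusters was not tested. The libraries came from 6 strains of D. yakuba and 1 strain of D. melanogaster, so species and sampling cannot be told apart.

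The choice of tracts used the distances in D. yakuba, but not whether these distances recur in the other species. Tracts with many sites offer more combinations that can match, and the search was not run on the smaller D. yakuba tracts. Blocks of at least 3 sites spanning 20 bp or more, with identical distances in a D. yakuba tract and in a D. melanogaster tract of any size, were searched in both orientations, with neighbouring block sites at most 1000 bp apart. There were 143 such blocks in 22 of the 30 tracts, and the same sites can belong to several. Of the 120 blocks with 3 sites, 21 (17.5%) joined tracts on arms of the same name, against 23.2% of the 374880 site pairs compared. Of the 23 blocks with 4 or more sites, 18 (78.3%) were on the same arm, and so were all 6 blocks with 5 to 7 sites. No test of these shares was made, since blocks overlap and the 2 lists are 1 observation each.

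**Figure D4:**
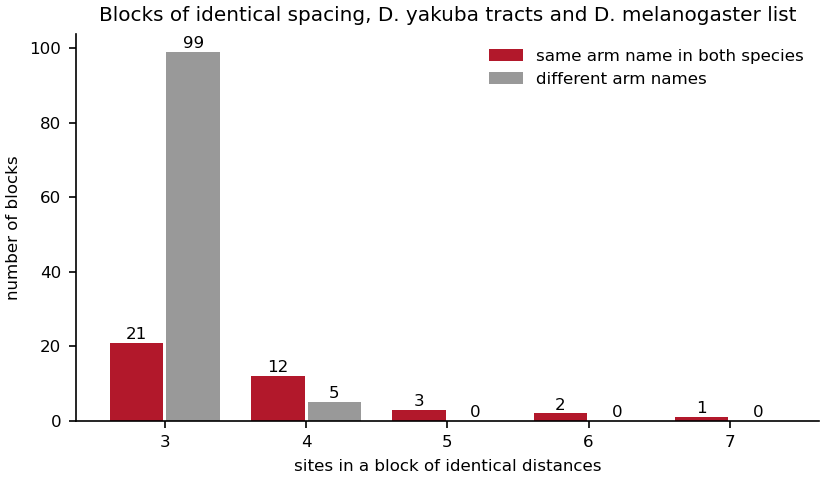
Bars count the blocks of identical distances shared by the 30 D. yakuba tracts and the D. melanogaster list, by number of sites in the block, for tracts on arms of the same name and on arms of different names. Blocks of 3 sites fall mostly on different arms (99 of 120), and blocks of 5 to 7 sites only on the same arm (6 of 6).

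Same-arm blocks of 4 or more sites were found in 12 of the 30 tracts and held 65 of the 426 member sites (15.3%). This count takes every same-arm block, also where a tract matched more than 1 D. melanogaster tract. The member sites in blocks on other arms were not counted, nor were blocks sought in the rest of the D. yakuba list. In 9 of these tracts no block of 4 or more sites pointed to another arm, and in 3 tracts at least 1 did. The longest held 7 sites at 3L from 8994427 to 8994934, with successive distances of 1, 29, 32, 52, 1 and 392 bp and a span of 508 bp. The D. yakuba list had 2 further sites inside that span and the D. melanogaster list none. The block recurred at 3L from 2940919 to 2941426 of dm3 in the opposite orientation. The second held 6 sites at 3L from 4942987 to 4943270, at distances of 22, 1, 28, 209 and 23 bp, and recurred at 3L from 4369162 to 4369445. In both species no further listed site lay inside that block. The third held 6 sites within 36 bp at 2L from 9913295 to 9913330, at distances of 21, 3, 3, 4 and 4 bp. The D. melanogaster counterpart, at 2L from 13485127 to 13485162, had 1 more listed site among them.

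The X tract of 26 sites shared more than one block with a single D. melanogaster tract. One block of 5 sites began at X 16443311, at distances of 7, 232, 2 and 819 bp, and its counterpart began at X 17824684. The other block of 5 sites began at X 16454932, at distances of 34, 1, 3 and 17 bp, and its counterpart began at X 17836427. The block starts were 11621 bp apart in D. yakuba and 11743 bp apart in D. melanogaster, in the same order. Both counterparts lay in the D. melanogaster tract with the most sites, which held 33.

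For the X tract of 39 sites the matches were divided. It had 5 blocks of 4 sites, of which 2 were on X and the other 3 on 2L. One of them had no unmatched site of either species inside: the 36, 25 and 29 bp steps from 10484101 recurred from X 16365262, in a D. melanogaster tract of 28 sites. The other X block had steps of 502, 1 and 1 bp, with its counterpart from X 10141446. The next tract in D. yakuba, at X from 10514838, had an uninterrupted block of 3 sites at steps of 13 and 13 bp from 10519750, and this recurred from X 16403691 in the tract that follows in D. melanogaster. The block starts were 35649 bp apart in D. yakuba and 38429 bp apart in D. melanogaster. The 13-bp block reads the same in both orientations.

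**Figure D5:**
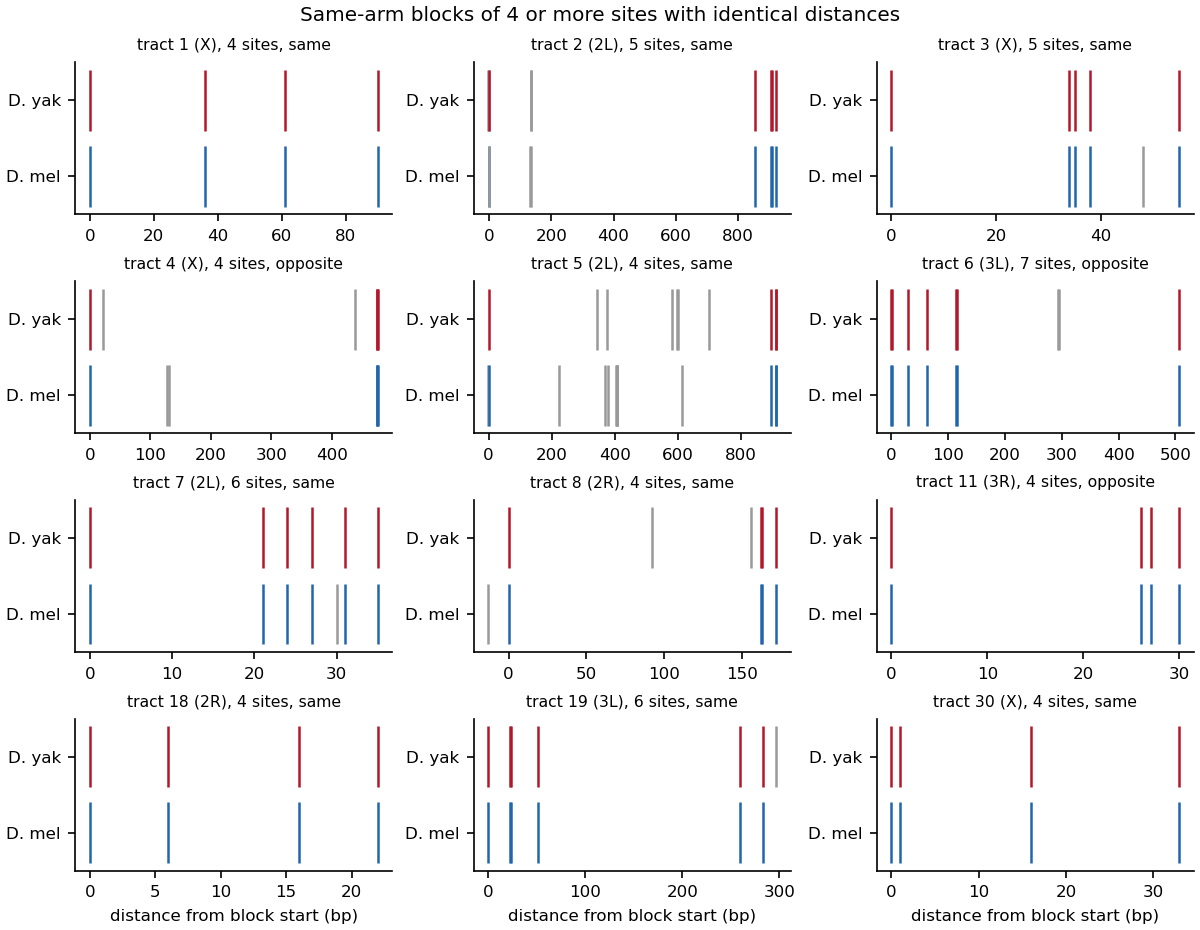
Panels show, for 12 D. yakuba tracts, a same-arm block with the most sites, with D. yakuba sites above (red) and D. melanogaster sites below (blue), by distance in bp from the block start. Coloured marks are sites at identical distances in both species, grey marks are other listed sites, and "opposite" means that the D. melanogaster positions are drawn in reverse. In the panels of tracts 1, 11, 18 and 30 every listed site shown has its counterpart.

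Uninterrupted blocks, those with no unmatched listed site of either species inside, gave 6 blocks of 4 or more sites, all 6 on the same arm and from 5 tracts. Beside the 2 already described they were 4 sites at 3R from 25963346 at steps of 26, 1 and 3 bp, 4 sites at X from 21344941 at steps of 1, 15 and 17 bp, and 4 sites at 2R from 9627561 at steps of 6, 10 and 6 bp. The last block is symmetric and was counted in each orientation. Of 14 uninterrupted blocks of 3 sites, 4 were on the same arm.

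For the D. melanogaster counterparts the genome base could be read, which the D. yakuba list does not give. In the tables of the 4 mock libraries an edited base shows as A-to-G where the genome has A and as T-to-C where it has T. In all 143 blocks, on the same arm or not, the counterparts seen in these libraries had 1 genome base throughout, and 0 blocks mixed A with T. A uniform base therefore does not set the 18 same-arm blocks of 4 or more sites apart from the others. All 7 counterparts of the longest block had A, and 3 of them were listed in all 4 mock libraries. All 6 counterparts of the 3L block at 4369162 had T, as had all 10 of the X tract of 26 sites. The 4 counterparts of the 36, 25 and 29 bp block on X had T and were each listed in all 4 libraries, as were the 4 of the block on 3R, which had A. The 4 counterparts of the 2R block from 20765682 had A, and none of these was listed in all 4 libraries. The bases of the D. yakuba genome at its own sites were not read here.

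In 10 of the 22 tracts with any block the blocks had only 3 sites, and 3 of these tracts had a block on the same arm. The other 8 tracts had no block at all, among them the tracts at 2L from 2775650 with 14 sites, at 3R from 5633821 with 13 sites and on chromosome 4. A missing block says only that no 3 sites kept identical distances within the limits of the search. Those were a span of at least 20 bp and steps of at most 1000 bp, so runs of 3 adjacent bases could not count.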

How the data were processed

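Sites were taken from the lists deposited by the authors, 1 list per species, which hold 1-bp positions without strand, level or gene. Reads were mapped with TopHat 2.0.6 and Bowtie 2.0.2 (4 mismatches, 1 alignment per read) to droYak2 or dm3, and unmapped reads with bsmap 2.74 (3 mismatches), per the labels' protocols; the rule that called a site is not stated in those sources. HiSeq reads were 50 nt and NextSeq reads 86 nt. The end column of the lists was used as the 1-based position: at it, the 4 library tables held A-to-G or else T-to-C for 1084 of 1238 D. melanogaster sites, against 202 one base before and 205 one base after.

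Gaps are differences between positions. Intervals are exact (Clopper-Pearson, 95%) and cover counting error only. Those of site and gap shares treat sites or gaps as independent, which those of a tract or cluster are not, so they are likely too narrow. All 30 tracts are named, and clusters and adjacent runs by size. The members, the gap of 10000 bp and the block search were chosen with earlier results of these data known. The search of uninterrupted blocks, the codon-multiple gaps and the 50-bp windows were added after the lists were seen. Steps were tested on simulated data, where tracts and spacings planted on a single arm were recovered. The block search there allowed longer gaps between block sites than the 1000 bp used here. How often blocks arise without planting was not tested. Tables were made with pandas 2.3.3 under Python 3.11.15, intervals with scipy 1.17.1, gaps with numpy 2.4.6, and plots with matplotlib 3.10.9.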

Additional observations from a re-analysis of the deposited data

How the results depend on the processing

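The number of heavily edited tracts, 30, became 48 with a minimum of 6 sites per tract and 16 with a minimum of 10, and the D. melanogaster number, 35, became 57 and 22. With tracts joined at 5000 bp, 79.7% of member sites had a neighbour within 100 bp, against 75.1% at 10000 bp, and 68.3% of the members had one within 50 bp. The number of tracts with a shared spacing was 12 when blocks needed 4 sites, against 22 with 3. The other 29 of 36 values computed under these alternatives, among them 20000-bp joining, other cluster gaps and blocks of at least 50 bp, stayed within 1.5 times the count or within the interval of the share. That interval treats sites as independent and serves here only as a fixed yardstick. The 29 values include 6 recomputed without heterochromatin scaffolds, which could not move. The D. yakuba list has no site on such scaffolds, and no heavily edited D. melanogaster tract lies on one. Leaving out libraries was not possible, since each list has no values per library. Depth is unknown, so an unlisted base cannot be separated into uncovered and unedited.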
